A study of Mus musculus with 48 samples.

Results

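The 6 keratin genes of the epidermis between the hair follicles, Krt5, Krt14, Krt1, Krt10, Krt77 and Krt2, were chosen by their symbols and are 6 of the 46983 genes in each of the expression tables of skin and ear. Their levels come from sequencing of RNA from microdissected whole skin of C57BL/6 mice, and they are given as FPKM, fragments scaled by transcript length and by library size, a unit that allows for transcript length so that different genes can be set side by side. In skin, 43 libraries fell into 18 groups, made of 3 domains (chin, ventral and dorsal) at 6 hair cycle stages: competent telogen, which is the first resting phase, then early, mid and late anagen, which are growth, catagen, which is regression, and refractory telogen, which is the start of the second resting phase. Each group had 2 or 3 replicate libraries. A further table held 3 libraries of the ear cartilage/muscle complex, 2 of telogen ear skin and 2 of dorsal skin in competent telogen. The last 2 are shared with the skin table value for value, so that 48 libraries were distinct.

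All mice were of 1 strain, and the labels used here gave neither treatment, age nor sex for these libraries. The labels do not say whether replicates came from different mice, so that p-values measure only the spread between these libraries. In whole skin, fewer keratinocytes and less RNA per keratinocyte cannot be told apart.

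Keratins are filament proteins that assemble as pairs of 1 acidic (type I) and 1 basic (type II) chain. Keratinocytes of the basal layer, which divide and hold the epidermis to the basement membrane, make keratins 5 and 14, as do the outer root sheath and the basal cells of the sebaceous gland. Cells that leave the basal layer switch to keratins 1 and 10, the pair of the spinous and granular layers. Keratin 77 is a further type II chain of the epidermis, and keratin 2 is a late type II chain of the upper layers that in mice is known from ear, tail and sole skin.

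All 6 genes lie on the minus strand of the mouse genome (GRCm38, GENCODE annotation). The type II genes share the keratin cluster of chromosome 15, with Krt5 at chr15:101707070-101712898, Krt2 at chr15:101810689-101818169, Krt1 at chr15:101845426-101850794 and Krt77 at chr15:101858731-101869705, within 162.6 kb. Krt10 at chr11:99385254-99389364 and Krt14 at chr11:100203162-100207548 are the type I genes.

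The promoters of 4 genes are shown because the results turn on how these genes part ways: Krt10 and Krt77 moved together in the skin domains and apart in the ear, Krt2 differed most between ear and dorsal skin, and Krt5 stands for the basal pair. Each stretch is the 150 bases just before the RefSeq start (GRCm38.p6, minus strand, 5′ to 3′), taken from chr15:101712906-101713055 for Krt5, chr11:99389365-99389514 for Krt10, chr15:101869706-101869855 for Krt77 and chr15:101818170-101818319 for Krt2. Capitals mark a match to TATAAA or TATATA, the letters of a TATA box.
Krt5: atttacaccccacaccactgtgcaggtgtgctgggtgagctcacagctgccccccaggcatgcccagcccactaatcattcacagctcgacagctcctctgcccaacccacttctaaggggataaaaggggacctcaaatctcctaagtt
Krt10: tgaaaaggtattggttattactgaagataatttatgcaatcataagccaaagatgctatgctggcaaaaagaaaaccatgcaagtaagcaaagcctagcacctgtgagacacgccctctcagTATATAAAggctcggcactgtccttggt
Krt77: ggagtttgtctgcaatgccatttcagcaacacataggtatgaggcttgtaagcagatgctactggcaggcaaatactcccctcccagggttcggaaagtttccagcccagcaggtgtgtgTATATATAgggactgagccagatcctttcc
Krt2: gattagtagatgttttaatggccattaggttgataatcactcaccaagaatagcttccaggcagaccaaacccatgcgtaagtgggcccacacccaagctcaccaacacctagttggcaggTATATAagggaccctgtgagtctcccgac
The promoters of Krt1 and Krt14 were not analysed here. Krt10, Krt77 and Krt2 each held such a match between bases -30 and -21 before the start, and the Krt5 stretch held neither set of letters. Only exact matches were searched, so that similar letters, such as ataaaa in the Krt5 stretch, were not counted. In Krt10 the letters TATATA and TATAAA overlapped, and in Krt77 there were 2 overlapping matches of TATATA. Searched on both strands of the same window in 32851 RefSeq promoters, TATAAA was found in 7.57% and TATATA in 2.97%. The letters TGANTCA of AP-1 sites (4.24% of promoters) and GCCNNNGGC of AP-2 sites (9.61%) were not in any of the 4 stretches. A match describes the letters and was not tested for use.

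The depth, estimated from the steps between FPKM values, was 6834539 to 27741473 fragments a library, a rough estimate. Of the stretches of 50 bases in a transcript, 14.4% of those in Krt14 and 8.52% of those in Krt5 also occurred in transcripts of other genes, most of them in Krt16 and Krt6a, so the levels of Krt14 and Krt5 depend on how shared reads were assigned. Stretches of Krt1, Krt10, Krt77 and Krt2 had no such match.

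Libraries labelled dorsal competent telogen stood apart from their label. They lay as near to the chin late anagen libraries as replicates of 1 group lie to each other, with an SD of log2 differences over 4510 genes of 0.286 to 0.387, against 0.313 to 0.844 between replicates and at least 0.501 between other groups. No replicate pair compared, and no pair of a library from each of these groups, was as close as the sampling noise expected from the roughly estimated depths. Markers of the inner root sheath, the follicle layer made in growth, were high in them: the 8 genes summed to 23524 and 23855 FPKM, against 22749 and 24154 FPKM in chin late anagen. Means of the other telogen groups ran from 7198 FPKM in chin refractory telogen to 18481 in ventral refractory telogen. Dorsal refractory telogen, at 16725 FPKM, was thus not free of this signal. The telogen-anagen comparisons that rest on the libraries labelled dorsal competent telogen are given with and without them. The library ventral catagen replicate 1 is ventral by its title and source, while its tissue location label reads ear rostral. It was kept as ventral, and its Krt2 level of 0.23 FPKM compares with 6849 and 6436 FPKM in ear skin.

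Krt14 and Krt5, the basal pair, were the most abundant of the 6 keratins in the skin domains and moved together. They were highest in ventral early anagen, where the mean level was 5568 FPKM for Krt14 and 2221 FPKM for Krt5, and lowest in dorsal catagen, at 1170 and 486 FPKM, so the groups spanned 4.76-fold and 4.57-fold. Replicates varied little, with a median coefficient of variation of 3.44% for Krt14 and 4.73% for Krt5, but of the 17 pairs of neighbours in the order of group means, 12 and 11 overlapped in their libraries.

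In chin skin, Krt14 was at 3106 and 2692 FPKM in competent telogen, 2191 and 1675 in early anagen, 1691 and 2515 in mid anagen, 2347 and 2254 in late anagen, 2131, 2338 and 2359 in catagen, and 3221, 3094 and 2955 in refractory telogen. Every telogen library was above every other chin library. In ventral skin, Krt14 was at 2248, 2245 and 1809.8 FPKM in competent telogen, 5405, 5613 and 5686 in early anagen, 1817 and 1838 in mid anagen, 2863, 2869 and 2709 in late anagen, 1814 and 1619 in catagen, and 3915 and 3898 in refractory telogen. Early anagen stood alone at the top there, and mid anagen, catagen and 1 competent telogen library lay at the bottom, between 1619 and 1838 FPKM. In dorsal skin, Krt14 was at 2324 and 2271 FPKM in competent telogen, 2284 and 2169 in early anagen, 1978, 1981 and 1791 in mid anagen, 2327, 2256 and 2301 in late anagen, 1194 and 1147 in catagen, and 3985 and 3832 in refractory telogen. Only the catagen and the refractory telogen libraries left the range of the other 4 dorsal groups, in opposite directions.

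Krt5 followed the same course. In chin skin it was at 1551 and 1477 FPKM in competent telogen, 992 and 882 in late anagen, and 1602, 1603 and 1493 in refractory telogen, so that its telogen libraries stood above its late anagen ones. In ventral skin it was at 955, 929 and 842 FPKM in competent telogen, 2234, 2194 and 2237 in early anagen, and 605 and 679 in mid anagen, with no overlap between these groups. In dorsal skin it was at 491 and 482 FPKM in catagen and 1720.2 and 1612 in refractory telogen, and all other dorsal libraries lay between these values.

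The largest moves of the basal pair between consecutive stages were tested with limma on log2(FPKM + 1), with Benjamini-Hochberg adjustment over 21257 genes. From competent telogen to early anagen in ventral skin, Krt14 rose by 1.41 ± 0.10 (SE) on the log2 scale (adjusted p = 6.99e-12) and Krt5 by 1.29 ± 0.12 (adjusted p = 7.89e-10). With Krt77, 3 of the 6 keratins rose in that comparison, where 13.2% of all genes did. By mid anagen Krt14 fell by 1.61 (adjusted p = 5.46e-12) and Krt5 fell by 1.79 (adjusted p = 1.05e-11), and 5 of 6 keratins fell, where 25.6% of all genes did. In dorsal skin both genes fell from late anagen to catagen, Krt5 by 1.04 (adjusted p = 2.99e-07) and Krt14 by 0.97 (adjusted p = 8.4e-08). They were the only 2 of the 6 called there, with 18.7% of all genes called lower. From dorsal catagen to refractory telogen they rose by 1.77 for Krt5 (adjusted p = 6.58e-11) and 1.74 for Krt14 (adjusted p = 6.42e-12).

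**Figure D1:**
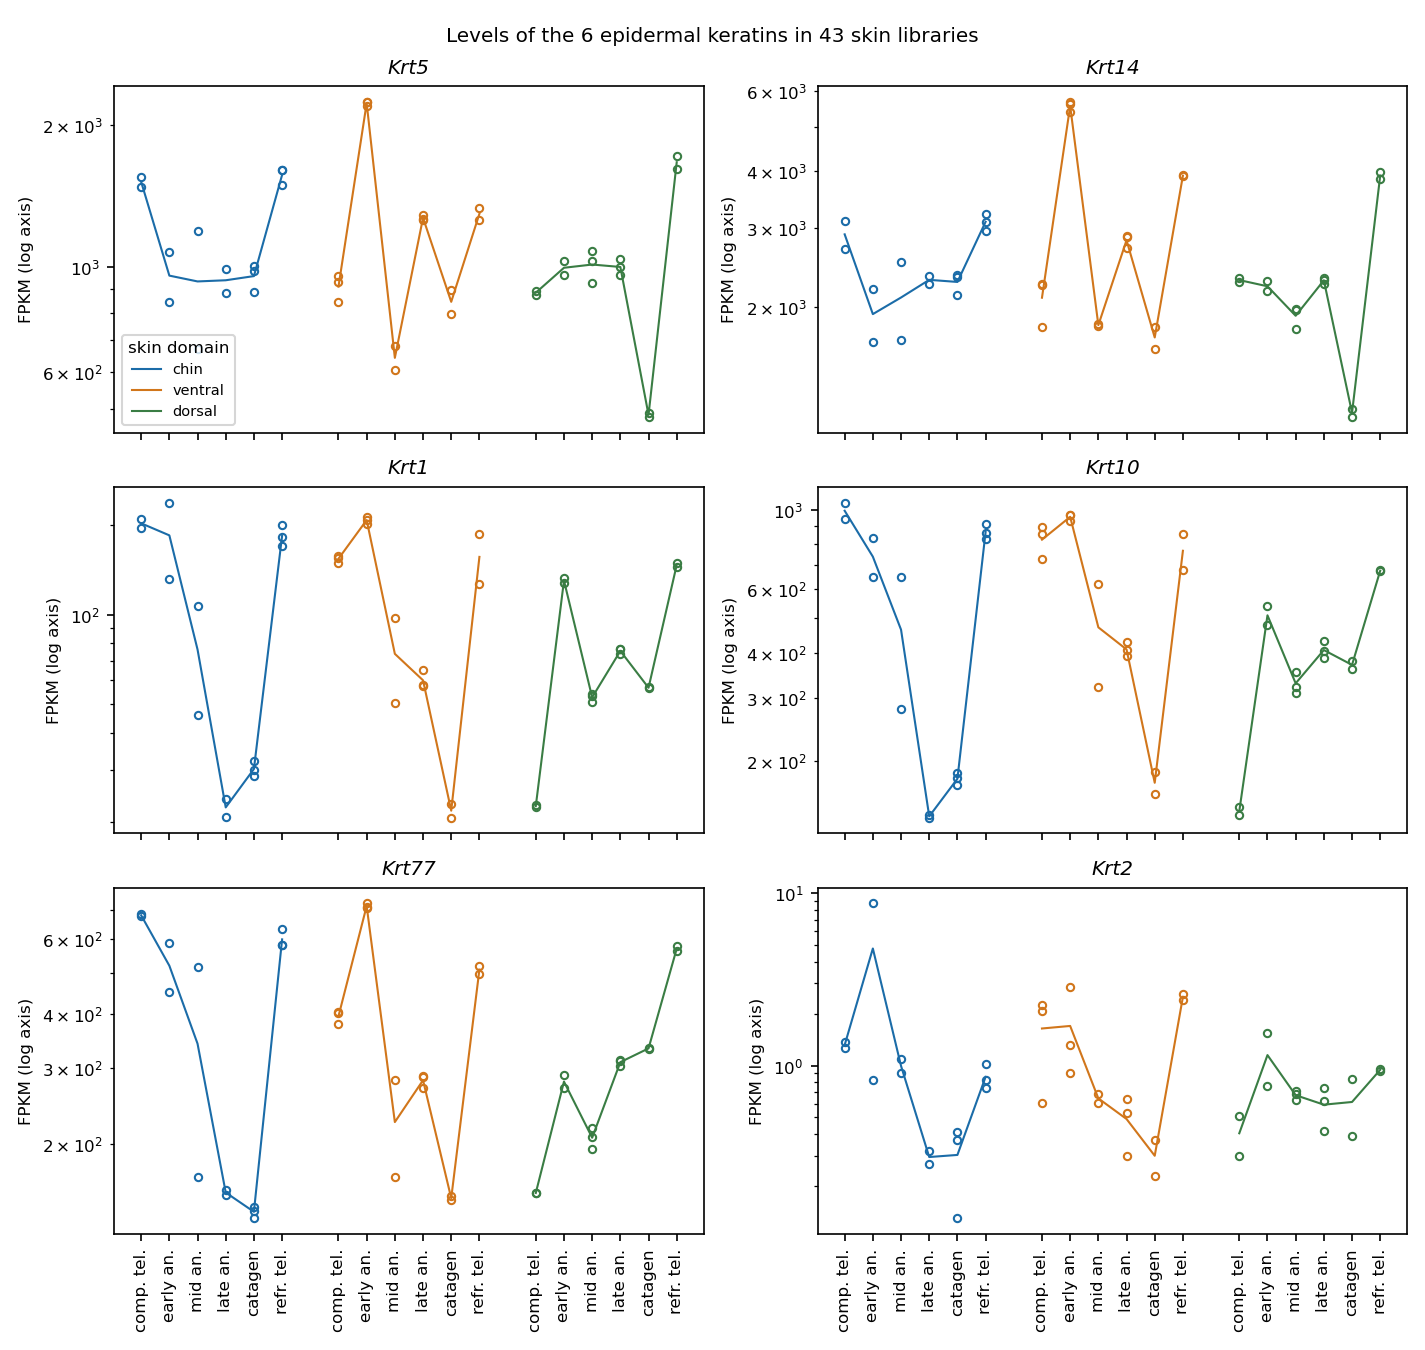
FPKM of the 6 keratins (log axis) at the 6 hair cycle stages, with a point for each of the 43 libraries and a line through the group means of each domain. Krt5 and Krt14 peak in ventral early anagen and dip in dorsal catagen, whereas Krt1, Krt10 and Krt77 fall to their lowest levels in chin late anagen, in chin and ventral catagen and in the libraries labelled dorsal competent telogen.

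Krt1, Krt10 and Krt77 spanned a wider range than the basal pair. Krt1 ranged from 21.9 FPKM in ventral catagen to 208 FPKM in ventral early anagen (9.51-fold), Krt10 from 140.2 FPKM in chin late anagen to 992 FPKM in chin competent telogen (7.08-fold), and Krt77 from 139 FPKM in chin catagen to 715 FPKM in ventral early anagen (5.14-fold). The median coefficient of variation between replicates was 5.39%, 6.24% and 3.10%. Of 17 neighbours in the order, 10, 11 and 8 overlapped.

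In chin skin, Krt10 was at 1046 and 939 FPKM in competent telogen, 831 and 648 in early anagen, 278 and 648 in mid anagen, 139 and 141 in late anagen, 179, 185 and 172 in catagen, and 859.5, 910.5 and 827 in refractory telogen. Late anagen and catagen lay far below all other chin groups, and the mid anagen libraries disagreed. In ventral skin, Krt10 was at 728, 852 and 893 FPKM in competent telogen, 931, 966 and 966 in early anagen, 620.1 and 321 in mid anagen, 406, 428 and 391 in late anagen, 186 and 162 in catagen, and 855 and 681 in refractory telogen. Catagen was again below every other ventral group. In dorsal skin, Krt10 was at 149 and 141 FPKM in competent telogen, 477 and 538 in early anagen, 309.5, 322 and 354 in mid anagen, 385, 405 and 429.7 in late anagen, 359 and 380.1 in catagen, and 677 and 675 in refractory telogen. Here the libraries labelled competent telogen were lowest and refractory telogen highest, with catagen in the range of mid and late anagen.

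Krt1 repeated this pattern at a lower level. In chin skin it was at 210.0 and 196 FPKM in competent telogen, 20.9 and 24.0 in late anagen, 28.6, 32.1 and 30.0 in catagen, and 183, 199 and 170.1 in refractory telogen. In dorsal skin it was at 22.5 and 22.8 FPKM in the libraries labelled competent telogen, 56.5 and 56.9 in catagen, and 145 and 149 in refractory telogen. In ventral skin it was at 158, 149.7 and 155 FPKM in competent telogen, 209, 202 and 213 in early anagen, 57.8, 64.9 and 57.5 in late anagen, and 20.7 and 23.0 in catagen. The dorsal libraries labelled competent telogen therefore lay with the chin late anagen libraries for Krt1 as well.

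Krt77 was at 684 and 676 FPKM in chin competent telogen, 156 and 152 in chin late anagen, 134, 143 and 140.0 in chin catagen, and 579, 633 and 581 in chin refractory telogen. It was at 711, 708 and 725 FPKM in ventral early anagen and 148 and 151 in ventral catagen. In dorsal skin it was at 154 and 153 FPKM in competent telogen, 333 and 334 in catagen, and 575 and 562 in refractory telogen. As for Krt10, dorsal catagen was above chin and ventral catagen with no overlap.

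Chin mid anagen replicates differed most, by 3.09-fold for Krt77, 2.33-fold for Krt10 and 2.32-fold for Krt1, against 1.78-fold for Krt5 and 1.49-fold for Krt14. Ventral mid anagen replicates differed by 1.94-fold for Krt1, 1.93-fold for Krt10 and 1.68-fold for Krt77. Results that use these groups carry this spread.

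To ask whether the resting phases differed from later growth, the mean of competent and refractory telogen was compared with that of mid and late anagen within each domain. Early anagen was left out of all these telogen-anagen comparisons, which do not cover growth as a whole. In ventral skin the early anagen means of Krt14, Krt5, Krt1, Krt10 and Krt77 were above both telogen groups. In chin skin those of Krt14, Krt5, Krt10 and Krt77 were below both. In chin skin 5 of the 6 keratins were higher in telogen, where 34.1% of all genes were: Krt1 by 2.25 ± 0.17 (SE) on the log2 scale, or 4.76-fold (adjusted p = 2.43e-11), Krt10 by 1.92 ± 0.16 (adjusted p = 8.66e-11), Krt77 by 1.58 ± 0.17 (adjusted p = 1.65e-08), Krt5 by 0.75 ± 0.10 (adjusted p = 5.15e-07) and Krt14 by 0.46 ± 0.09 (adjusted p = 8.59e-05). The suprabasal values thus ran from 1.58 to 2.25 and the basal ones from 0.46 to 0.75, and the difference between the genes was not tested. The median of all genes was itself 0.17 higher in chin telogen, relative to which Krt1 was higher by 2.08, Krt10 by 1.74, Krt77 by 1.40, Krt5 by 0.58 and Krt14 by 0.28. Without the chin late anagen libraries, with mid anagen alone, the same 5 were called higher, where 24.6% of all genes were, at 1.45 for Krt1 (adjusted p = 7.57e-06), 1.12 for Krt10 (adjusted p = 7.16e-05), 1.11 for Krt77 (adjusted p = 0.000195), 0.78 for Krt5 (adjusted p = 1.46e-05) and 0.53 for Krt14 (adjusted p = 0.000329). With median-of-ratios scaling, which took that median to 0.01, Krt14 was no longer called in chin skin (0.19, adjusted p = 0.110).

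In ventral skin all 6 were higher in telogen, where 22.9% of all genes were: Krt1 by 1.23 ± 0.17 (adjusted p = 1.03e-06), Krt2 by 0.93 ± 0.26 (adjusted p = 0.00751), Krt10 by 0.89 ± 0.15 (adjusted p = 3.26e-05), Krt77 by 0.86 ± 0.16 (adjusted p = 0.000137), Krt14 by 0.33 ± 0.08 (adjusted p = 0.00214) and Krt5 by 0.26 ± 0.09 (adjusted p = 0.0324). Krt2 was near the floor, at 0.61 to 2.25 FPKM in ventral competent telogen, 2.39 to 2.61 in refractory telogen, 0.61 to 0.68 in mid anagen and 0.30 to 0.64 in late anagen. The calls of Krt14 and Krt5 were lost with median-of-ratios scaling, at 0.18 (adjusted p = 0.110) and 0.11 (adjusted p = 0.436), and that of Krt5 also without any 1 of 6 libraries (competent telogen 1 and 2, mid anagen 1, late anagen 2 and 3, refractory telogen 1), at 0.22 to 0.26.

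In dorsal skin 2 of the 6 were higher, where 10.4% of all genes were: Krt14 by 0.52 ± 0.08 (adjusted p = 1.34e-05) and Krt5 by 0.27 ± 0.09 (adjusted p = 0.0284). Krt1 stood at -0.11 ± 0.17 (adjusted p = 0.673), Krt10 at -0.22 ± 0.15 (adjusted p = 0.302) and Krt77 at 0.23 ± 0.16 (adjusted p = 0.329), none of them called. With quantile normalization neither was called, Krt14 at 0.16 (adjusted p = 0.162) and Krt5 at 0.10 (adjusted p = 0.436), and the Krt5 call was also lost without any 1 of 5 libraries (competent telogen 1 and 2, mid anagen 3, late anagen 3, refractory telogen 1), at 0.24 to 0.28. Without the libraries labelled dorsal competent telogen, with refractory telogen alone against mid and late anagen, 5 of the 6 were higher, where 13% of all genes were: Krt1 by 1.21 (adjusted p = 5.94e-05), Krt77 by 1.17 (adjusted p = 7.4e-05), Krt14 by 0.90 (adjusted p = 1.56e-07), Krt10 by 0.89 (adjusted p = 0.000712) and Krt5 by 0.73 (adjusted p = 2.91e-05). The sign of the Krt1 and Krt10 differences therefore rested on these 2 libraries. Krt16 and Krt6a, which share stretches with Krt14 and Krt5, were also higher with all libraries. Their limma differences were 0.68 (adjusted p = 0.000283) and 0.67 (adjusted p = 4.11e-08), and 0.70 and 0.99 without the libraries labelled dorsal competent telogen. The part of shared reads in the Krt14 and Krt5 differences was not tested.

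**Figure D2:**
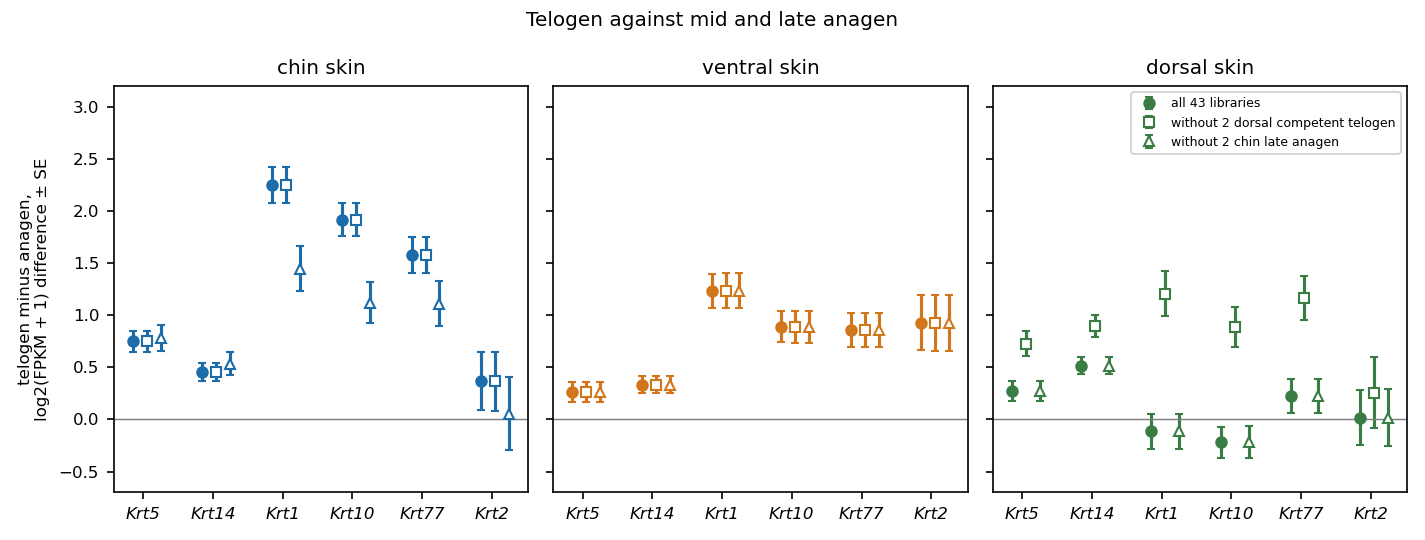
Difference of each keratin between telogen and mid plus late anagen (log2 scale, with SE bars) in chin, ventral and dorsal skin, with all libraries, without the libraries labelled dorsal competent telogen and without the chin late anagen libraries. In dorsal skin Krt1 moves from -0.11 to 1.21 and Krt10 from -0.22 to 0.89 when the libraries labelled dorsal competent telogen are left out.

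Telogen-anagen differences also varied between domains. The dorsal difference was smaller than the chin one by 2.36 for Krt1 (adjusted p = 8.37e-09) and 2.14 for Krt10 (adjusted p = 9.55e-09), and 4 of 6 keratins differed, where 40.8% of all genes did. Between ventral and chin skin 4 of 6 differed, all smaller in ventral skin (13.3% of all genes), and between dorsal and ventral skin 3 of 6 (26.7%). Without the libraries labelled dorsal competent telogen, the dorsal minus chin values of Krt1 and Krt10 were -1.04 (adjusted p = 0.00408) and -1.03 (adjusted p = 0.00204), and without chin late anagen -1.56 (adjusted p = 9.11e-05) and -1.34 (adjusted p = 0.000185). Of the ventral minus chin calls, those of Krt1, Krt10 and Krt77 were lost without chin late anagen, and all 3 dorsal minus ventral calls were lost without dorsal competent telogen. In such fits 1 domain keeps a single telogen or anagen stage while the other keeps both, so the stages compared are not the same. Over all groups, the interaction of domain and stage passed the F-test for 5 of the 6, with 73.3% of all genes passing, and Krt2 did not (adjusted p = 0.129). Stages differed for all 6 keratins in chin skin (66.2% of all genes) and ventral skin (70.2%), and for 5 in dorsal skin (68.5%).

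From catagen to refractory telogen Krt1, Krt10 and Krt77 rose in all 3 domains. In chin skin, Krt1 rose by 2.57 ± 0.21 (adjusted p = 4.42e-11), Krt10 by 2.27 ± 0.19 (adjusted p = 7.86e-11) and Krt77 by 2.10 ± 0.21 (adjusted p = 1.42e-09), and 5 of 6 keratins rose, where 30.5% of all genes did. In ventral skin, Krt1 rose by 2.76 ± 0.26 (adjusted p = 2.39e-09), Krt10 by 2.13 ± 0.23 (adjusted p = 4.48e-08) and Krt77 by 1.76 ± 0.25 (adjusted p = 3.16e-06), and all 6 rose, where 14.9% of all genes did. Without ventral catagen replicate 1, whose labels disagree, the ventral values were 2.69 for Krt1, 2.23 for Krt10 and 1.74 for Krt77, all still called, and the call of Krt2 was lost (1.35, adjusted p = 0.0517). In dorsal skin 5 of 6 rose, where 19.1% of all genes did, by 1.36 ± 0.26 for Krt1 (adjusted p = 7.04e-05), 0.87 ± 0.23 for Krt10 (adjusted p = 0.00306) and 0.77 ± 0.25 for Krt77 (adjusted p = 0.0137). The dorsal Krt77 call was lost when any 1 of the 4 libraries was left out, at 0.75 to 0.79. Centred on 10 pan-keratinocyte genes, the dorsal rise was 0.077 for Krt10 (adjusted p = 0.754) and -0.023 for Krt77 (adjusted p = 0.931).

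From late anagen into catagen, 5 of the 6 fell in ventral skin: Krt1 fell by 1.42 (adjusted p = 0.00021), Krt10 by 1.23 (adjusted p = 0.000386), Krt77 by 0.91 (adjusted p = 0.0151), Krt14 by 0.71 (adjusted p = 0.000162) and Krt5 by 0.59 (adjusted p = 0.00575). Only 3.1% of all genes fell in that step. The Krt77 call was lost without either ventral catagen library, at -0.89 and -0.92, and that of Krt5 without replicate 2, at -0.51. In chin skin none of the 6 was called from late anagen to catagen (13.1% of all genes in either direction). The chin suprabasal keratins had fallen before that, from mid to late anagen, by 1.60 for Krt1 (adjusted p = 3.98e-05), 1.59 for Krt10 (adjusted p = 1.2e-05) and 0.93 for Krt77 (adjusted p = 0.00878), where 12.3% of all genes fell, while Krt5 and Krt14 stood at 0.07 (adjusted p = 0.845) and 0.16 (adjusted p = 0.433). Without chin mid anagen replicate 2 these falls were -1.01 for Krt1 and -0.98 for Krt10, both still called, and -0.12 for Krt77 (adjusted p = 0.695), whose call was also lost without chin late anagen replicate 2 (-0.91).

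Dorsal catagen differed from chin catagen in opposite directions for the 2 pairs. Krt5 was lower in dorsal skin by 0.97 on the log2 scale (signed value -0.97, adjusted p = 7.65e-07) and Krt14 stood at -0.96 (adjusted p = 9.06e-08), whereas Krt77 was higher by 1.26 (adjusted p = 5.17e-05), Krt10 by 1.05 (adjusted p = 0.000196) and Krt1 by 0.89 (adjusted p = 0.00276). These 5 of 6 compare with 41.3% of all genes called. Against ventral catagen the same 5 were called (35.4% of all genes), with Krt5 at -0.79 (adjusted p = 7.79e-05), Krt14 at -0.55 (adjusted p = 0.000977), Krt1 at 1.34 (adjusted p = 0.000125), Krt77 at 1.15 (adjusted p = 0.00056) and Krt10 at 1.09 (adjusted p = 0.000469). With that centring, the dorsal-ventral difference was 0.016 for Krt14 (adjusted p = 0.921) and -0.23 for Krt5 (adjusted p = 0.159).

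In refractory telogen, only Krt14 differed between domains by the F-test (42.2% of all genes), and Krt10 lay between 675 and 910.5 FPKM in all 7 libraries. The Krt14 level in chin skin was below ventral skin by 0.34 (adjusted p = 0.0265) and below dorsal skin by 0.34 (adjusted p = 0.0224), differences that turned to -0.16 and -0.13 with quantile normalization and lost their calls without chin replicate 3 or any library of the other domain (0.31 to 0.37). In mid anagen only Krt5 differed (38.1% of all genes). In early anagen 4 of 6 differed (51.6% of all genes), and Krt14 in ventral skin was above chin skin by 1.54 ± 0.12 (adjusted p = 1.71e-11). In late anagen 4 of 6 differed (20.8% of all genes), and ventral skin was above chin skin by 1.53 ± 0.21 for Krt10 (adjusted p = 6.91e-06) and 1.38 ± 0.23 for Krt1 (adjusted p = 0.000107). At competent telogen 5 of 6 differed between domains (54% of all genes). The dorsal minus chin difference there was -3.11 ± 0.26 for Krt1 (adjusted p = 1.4e-10), -2.77 ± 0.23 for Krt10 (adjusted p = 2.33e-10) and -2.14 ± 0.25 for Krt77 (adjusted p = 1.18e-07), with 27.5% of all genes called lower, and it rests on the dorsal libraries that stood apart. The same libraries lay below dorsal refractory telogen by 2.64 for Krt1 (signed value -2.64, adjusted p = 1.15e-08), as 5 of 6 keratins and 10.8% of all genes did, while chin competent and refractory telogen differed by 0.14 for Krt1 (adjusted p = 0.704).

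Ratios within a library do not depend on its scaling and show how the keratins moved against each other. Krt14 is also made by the outer root sheath and the sebaceous gland, so its ratios in whole skin do not compare epidermal layers alone. The part of these structures in the ratios was not tested. The ratio of Krt10 to Krt14, a suprabasal against a basal keratin, ranged from a group mean of 6.10% in chin late anagen, 6.31% in dorsal competent telogen and 7.86% in chin catagen to 39.9% ± 8.63 (SD, n = 3) in ventral competent telogen. Averaged over the domains, the log2 ratio was 0.43 higher in telogen than in mid and late anagen, 0.67 higher without the libraries labelled dorsal competent telogen and 0.14 higher without chin late anagen. Dorsal skin did not share this rise. Its mean ratio was 6.31% in competent and 17.3% in refractory telogen, against 17.2% in mid and 17.7% in late anagen. The ratio of Krt5 to Krt14 stayed between 33.2% and 52.8%, a narrower range of 1.59-fold. Krt1 was 12.7% to 25.8% of Krt10. Krt77 was 48.4% of Krt10 in ventral competent telogen and 110% in chin late anagen and 106% in dorsal competent telogen, so that in the 2 groups of lowest Krt10 the level of Krt77 was above it. Across the 18 group means of log2 values, Pearson's r was 0.99 between Krt1 and Krt10, 0.94 between Krt77 and Krt10, 0.93 between Krt5 and Krt14 and 0.48 between Krt14 and Krt10. The points share libraries within a group and the skin's make-up, so these are descriptions.

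**Figure D3:**
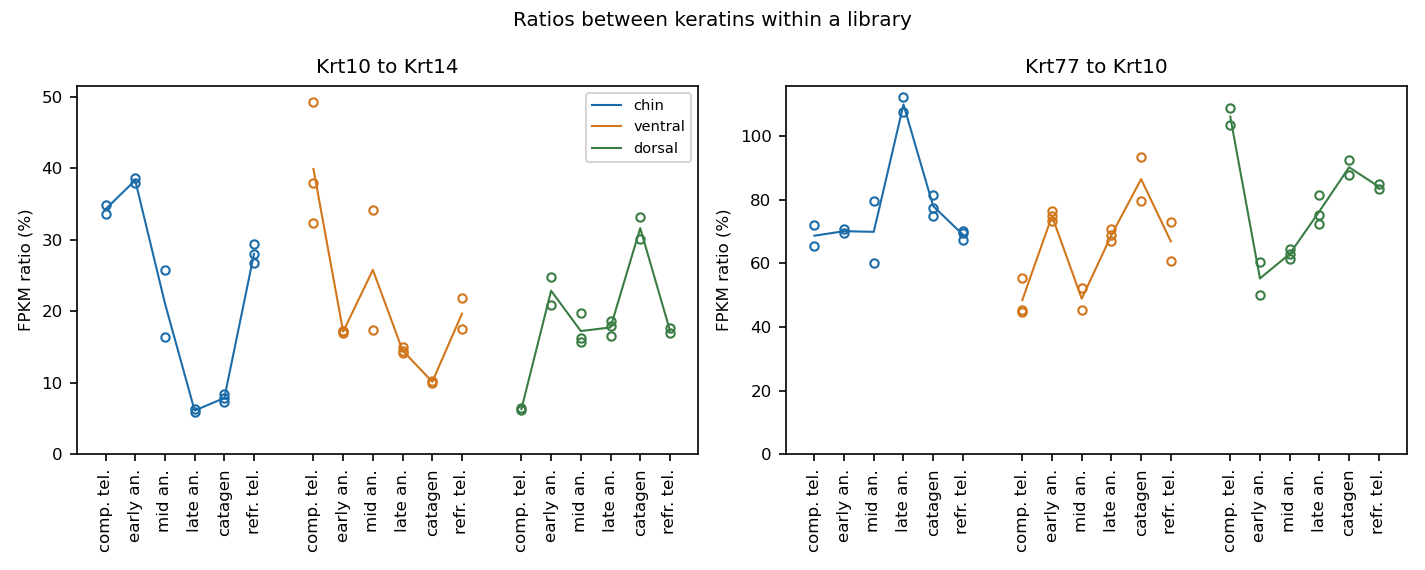
Ratios of Krt10 to Krt14 and of Krt77 to Krt10 FPKM in percent (linear axis from 0) for each library of the 18 skin groups, with a line through the group means of each domain. Krt10 to Krt14 runs from 6.10% in chin late anagen to 39.9% in ventral competent telogen. Krt77 to Krt10 runs from 48.4% in ventral competent telogen to 110% in chin late anagen.

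Genes of the inner root sheath, taken as a sum, moved against the suprabasal keratins across groups. In the 6 groups with the highest Krt10, at 739 to 992 FPKM, the 8 inner root sheath genes summed to 4904 to 18481 FPKM (median 10907), and in the other 12 groups, with Krt10 at 140.2 to 676 FPKM, to 8315 to 27745 FPKM (median 23570). Across the 18 group means r with this sum was -0.76 for Krt1, -0.72 for Krt10, -0.72 for Krt77, -0.51 for Krt5 and -0.46 for Krt14. FPKM are shares of a library, and the part of the follicle's RNA in the keratin levels was not tested.

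**Figure D4:**
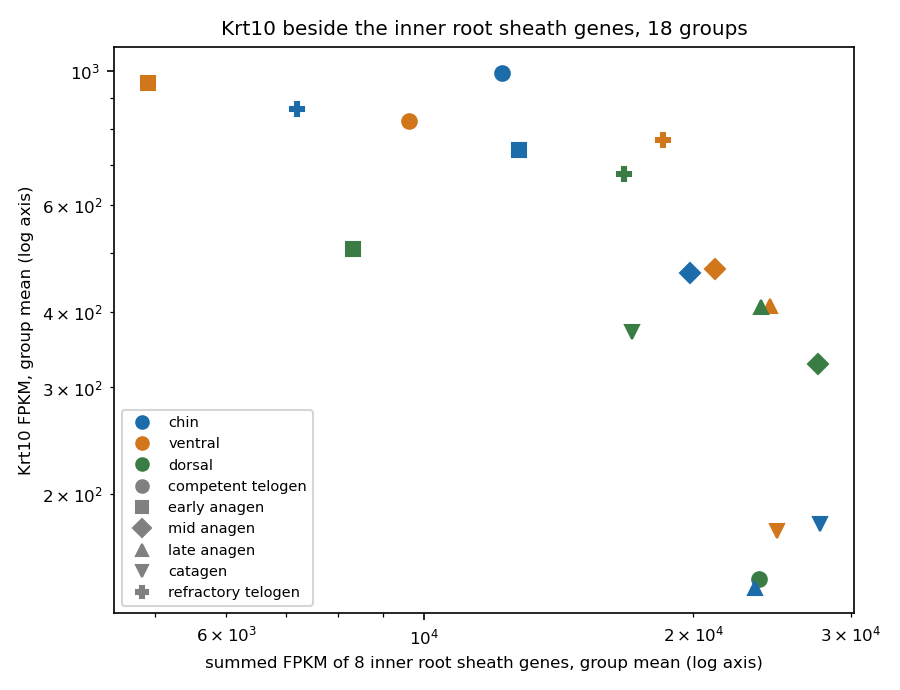
Krt10 FPKM (vertical, log axis) against the summed FPKM of 8 inner root sheath genes (horizontal, log axis), 1 point for each of the 18 groups, coloured by domain. Groups with the highest Krt10 sit at 4904 to 18481 FPKM of root sheath genes, and dorsal competent telogen sits beside chin late anagen.

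Krt2 was near the floor in the skin domains. Its libraries lay between 0.13 and 8.71 FPKM, group means between 0.295 and 4.77, and 16 of 17 neighbours overlapped. The highest group, chin early anagen, held libraries of 8.71 and 0.83 FPKM, a 10.5-fold gap. Ventral refractory telogen, at 2.61 and 2.39 FPKM, lay above ventral catagen at 0.23 and 0.37 (1.43 ± 0.41 on the log2 scale, adjusted p = 0.00754).

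Ear skin differed from dorsal skin in all 6 keratins, and most in Krt2. Krt2 was at 6849 and 6436 FPKM in ear skin, 0.30 and 0.51 in dorsal skin, and 0, 0.06 and 0.08 in the cartilage/muscle complex, which made it the most abundant of the 6 keratins in the ear and the least abundant on the back. The ear minus dorsal difference of Krt2 was 12.21 ± 0.10 (SE) on the log2(FPKM + 1) scale, which understates the change of a gene near 0 (limma over 19299 genes, adjusted p = 1.41e-08). Krt10 was at 2296 and 2375 FPKM in ear skin against 149 and 141 in dorsal skin, 16.0-fold higher (adjusted p = 5.5e-06). Krt1 was at 112 and 108 FPKM against 22.5 and 22.8, higher by 2.23 ± 0.07 (adjusted p = 3.14e-06). Krt77 went the other way, at 67.2 and 66.7 FPKM in the ear against 154 and 153, a difference of -1.19 ± 0.06 (adjusted p = 1.85e-05).

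Krt5 was at 1656 and 1537 FPKM in ear skin against 891 and 873, higher by 0.85 ± 0.06 (adjusted p = 6.94e-05). Krt14 was at 4933 and 4421 FPKM against 2324 and 2271, higher by 1.02 ± 0.29 (adjusted p = 0.0227), a call lost without any 1 of these 4 libraries, with a pseudocount of 0.1 and with median-of-ratios scaling (0.53, adjusted p = 0.148). The fit estimates the spread of a gene over all 3 tissues. For Krt14 that includes the cartilage/muscle complex, at 0 to 0.80 FPKM. Its SE and p-values, also those against dorsal refractory telogen below, therefore carry the spread near the floor in that tissue. In all, 5 of 6 keratins were higher and 1 lower in ear skin, where 44.7% and 14.6% of all genes were. The median of all genes was 0.33 higher in ear skin.

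The dorsal side of that comparison consists of the libraries that stood apart. With the 2 dorsal refractory telogen libraries in their place, the ear difference was 11.74 for Krt2 (adjusted p = 1.68e-08), 1.79 for Krt10 (adjusted p = 0.000139) and -3.07 for Krt77 (adjusted p = 3.77e-07). Krt1 changed sign, to -0.41 (adjusted p = 0.0027), and Krt5 and Krt14 were no longer called, at -0.06 (adjusted p = 0.467) and 0.26 (adjusted p = 0.490). High Krt2 and Krt10 and low Krt77 in the ear thus held against either dorsal group, with 57.5% of all genes called against the refractory telogen libraries. The refractory telogen libraries stand in the skin table, whose scale is that of the ear table as far as the shared libraries show, since 0 of their values differed.

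Expressed as shares, Krt2 was 298% and 271% of Krt10 in ear skin and at most 0.588% of it in the mean of any skin group. Krt10 was 46.5% and 53.7% of Krt14, and Krt77 was 2.93% and 2.81% of Krt10. Krt1 was 4.90% and 4.56% of Krt10, below the 12.7% to 25.8% of the skin group means. Krt5 was 33.6% and 34.8% of Krt14, within the range of the skin groups.

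In the cartilage/muscle complex, Krt14 was listed at 0, 0.80 and 0 FPKM, Krt5 at 0.08, 0.07 and 0.05, Krt1 at 0.26, 0.26 and 0.34, and Krt77 at 0 in all 3 libraries. Krt10 reached 3.08, 2.07 and 3.05 FPKM. All 6 keratins were higher in ear skin than there, where 38.5% of all genes were, and all 6 were higher in dorsal skin, where 28.3% of all genes were. For Krt2 in dorsal skin that difference was only 0.42 ± 0.09 (adjusted p = 0.00515).

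**Figure D5:**
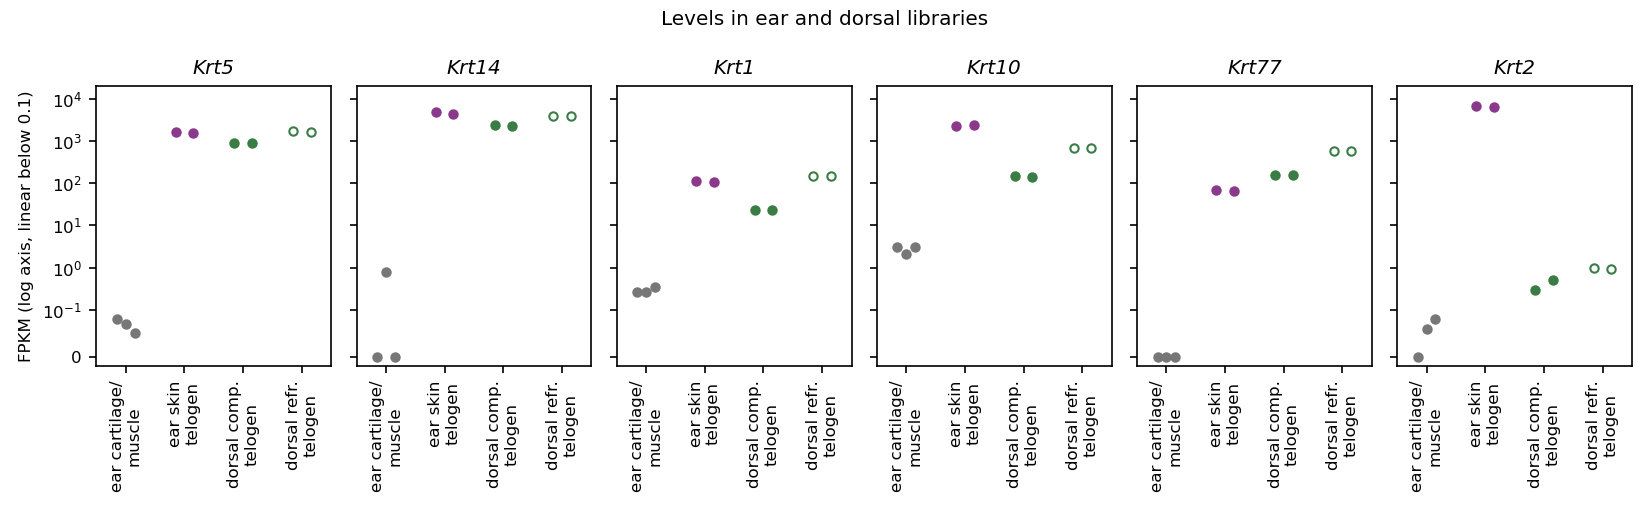
FPKM of the 6 keratins (log axis, with 0 drawn at the foot of the axis) in each library of the cartilage/muscle complex, ear skin, dorsal competent telogen and dorsal refractory telogen. Krt2 is at 6849 and 6436 in ear skin and under 1 in the other libraries, and Krt77 is lower in ear skin than in either dorsal group.

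Other epidermal genes were counted from lists of layer markers, and the list genes named with values are those with the largest called difference in dorsal telogen. Among all genes, 8.55% were lower in telogen in chin skin, 8.82% in ventral skin and 21% in dorsal skin, beside the shares called higher of 34.1%, 22.9% and 10.4%. In chin skin, 10 of 10 genes of the basal layer (integrins, laminin chains and Trp63 among them) were higher in telogen, with a median of 0.81 against 0.17 for all genes, and 9 of 10 without chin late anagen, where 24.6% of all genes were higher and 8.52% lower. In ventral skin 10 of 10 were higher too, with a median of 0.44 against 0.09. In dorsal skin 1 of 10 was higher (Itgb4, a hemidesmosome integrin, 0.38, adjusted p = 0.00603) and 3 were lower (Itga3, an integrin of the basement membrane, -0.34, adjusted p = 0.00399), and without the libraries labelled dorsal competent telogen 7 were higher and none lower, with Itgb4 at 0.75 (adjusted p = 0.000102) and Itga3 at -0.21 (adjusted p = 0.180), where 13% of all genes were higher and 20.3% lower.

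Of 18 genes of the spinous and granular layers, 12 were higher and 3 lower in chin telogen (8 and 2 without chin late anagen), 9 and 4 in ventral telogen, and 1 and 4 in dorsal telogen, which became 8 and 3 without those libraries. Tgm3 and Casp14, a transglutaminase and a protease of cornification, stood at -1.25 (adjusted p = 2.71e-06) and -1.24 (adjusted p = 2.66e-08) in dorsal skin, and at -2.20 (adjusted p = 2.02e-08) and -0.87 (adjusted p = 0.00025) without those libraries. Among 12 epidermal regulators, 6 were higher and 1 lower in chin (4 and 2 without chin late anagen), 3 and 3 in ventral, and 2 and 3 in dorsal skin. The 10 pan-keratinocyte genes (adhesion and barrier genes of all keratinocytes) gave 2 higher and 2 lower in chin (0 and 2 without chin late anagen), 0 and 2 in ventral, and 2 and 2 in dorsal skin, so this list moved in no single direction.

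Markers of other tissues moved as well. All 11 genes of hair matrix and shaft that were tested were lower in chin and in ventral telogen, as were 7 and 8 of 8 genes of the inner root sheath, and all 6 dermal fibroblast genes were higher in both. In dorsal telogen 6 of 6 muscle genes were higher (Myh4 by 3.11, adjusted p = 6.61e-15, and by 3.04 without the libraries labelled competent telogen). In ear skin, the inner root sheath genes summed to 305 and 309 FPKM against 23524 and 23855 in the libraries labelled dorsal competent telogen. Against the same libraries, 9 of 10 basal and 11 of 18 spinous and granular genes were higher in ear skin, where 44.7% of all genes were. These counts rest on the dorsal libraries that stood apart. The part of all these markers in the keratin differences was not tested.

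Among 9472 genes with a mean of at least 5 FPKM, those whose 18 group means ran most like each keratin were Calm4 (r = 0.98), Skint3 (0.97) and Hal (0.97) for Krt1, and Mboat2 (0.97), Calm4 (0.96) and 2010109I03Rik (0.96) for Krt10. Calm4 is a calmodulin-like gene of differentiating keratinocytes, and Hal encodes histidine ammonia-lyase. For Krt77 they were Ikzf2 (0.96), Il1f9 (0.96) and Ptpn21 (0.96). For Krt5 they were Myo1e (0.95), Rxra (0.93) and Clic3 (0.93), and for Krt14 Clic3 (0.92), Asprv1 (0.91) and Rnf144b (0.90). Krt2 had weaker matches, with Ctnnbip1 (0.83), Hrnr (0.81) and Calm4 (0.81).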

How the data were processed

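RNA of microdissected whole skin and ear tissue of C57BL/6 mice had been extracted as total RNA, made into full-length cDNA by SMART-seq2, tagmented and read from both ends. Against mm10 and GENCODE vM8, the authors used RSEM 1.2.25 to quantify each gene, and what they deposited are FPKM values rounded to 2 decimals. They state that samples were corrected for batch effects, but neither the batches nor the method are given in the sources used here, and such a correction could change differences between groups. No counts were at hand here, so no count model was fitted.

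Libraries were grouped by domain, stage and replicate by their titles and sources, which 1 ventral catagen library's tissue location label contradicts. Values were taken as log2(FPKM + 1), a gene was kept if 2 or more libraries reached 0.5 FPKM (21257 in the skin table and 19299 in the ear table), and contrasts were tested with limma 3.58.1 (R 4.3.3), 2-sided, with a variance trend, Benjamini-Hochberg adjustment over all genes kept and a threshold of 0.05. Fold changes are on the log2(FPKM + 1) scale and understate the change of low genes. Each interval given as ± is an SE unless named SD, with n the libraries of the groups. The script was tested on simulated data first. All other steps ran in Python 3.11.15 (pandas 2.3.3, numpy 2.4.6, scipy 1.17.1), and plots were drawn with matplotlib 3.10.9. Genes named besides the 6 keratins are, for each keratin, the 3 genes with the highest Pearson r over the 18 group means among genes with a mean of at least 5 FPKM, and the 2 list genes with the largest difference among those called in the dorsal telogen comparison. The keratins and the gene lists were chosen with earlier results of these data known. Alternatives were median-of-ratios scaling, quantile normalization, rescaling to TPM, a pseudocount of 0.1, no filter or a minimum of 5 FPKM, the replicate number as a block and leaving out single libraries. Added after seeing the data were fits without dorsal competent telogen or chin late anagen, dorsal refractory telogen in the ear comparison, and centring on pan-keratinocyte genes.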

Additional observations from a re-analysis of the deposited data

Results flagged for a closer look

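The difference between telogen and mid plus late anagen was not the same in all domains. Tested with limma for the 6 keratins in each pair of the 3 domains, the difference between domains was called for 11 values (21257 genes, Benjamini-Hochberg adjusted). Between dorsal and chin skin, the telogen difference was -2.36 for Krt1 (adjusted p = 8.37e-09), -2.14 for Krt10 (adjusted p = 9.55e-09), -1.35 for Krt77 (adjusted p = 3.75e-05) and -0.48 for Krt5 (adjusted p = 0.0057), each as dorsal minus chin on the log2 scale. These 4 of 6 compare with 40.8% of all genes called. Without the libraries labelled dorsal competent telogen, Krt1 and Krt10 stayed called at -1.04 (adjusted p = 0.00408) and -1.03 (adjusted p = 0.00204), whereas Krt77 stood at -0.41 (adjusted p = 0.268) and Krt5 at -0.02 (adjusted p = 0.945), and Krt5 was at -0.09 (adjusted p = 0.707) with median-of-ratios scaling. Krt14, at 0.06 with all libraries (adjusted p = 0.734), was then called in the other direction, at 0.44 (adjusted p = 0.0127). In that fit dorsal telogen was refractory telogen alone, whereas chin telogen kept both phases.

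Between ventral and chin skin, the values were -1.03 for Krt10 (adjusted p = 0.00188), -1.02 for Krt1 (adjusted p = 0.00467), -0.72 for Krt77 (adjusted p = 0.0409) and -0.49 for Krt5 (adjusted p = 0.0169), where 13.3% of all genes were called. Without the chin late anagen libraries they were -0.23 for Krt10 (adjusted p = 0.670), -0.21 for Krt1 (adjusted p = 0.733), -0.25 for Krt77 (adjusted p = 0.660) and -0.52 for Krt5 (adjusted p = 0.0419). In that fit chin anagen was mid anagen alone, whereas ventral anagen kept mid and late anagen. The Krt77 call was lost without any 1 of 15 libraries of both domains and all 4 stages, at -0.31 (without chin mid anagen replicate 1) to -0.73, and the Krt5 call without chin late anagen replicate 2 or ventral mid anagen replicate 2, at -0.44 and -0.45. The Krt5 and Krt77 calls were also lost with median-of-ratios scaling, at -0.37 (adjusted p = 0.0841) and -0.60 (adjusted p = 0.107).

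Between dorsal and ventral skin, the values were -1.35 for Krt1 (adjusted p = 6.9e-05), -1.11 for Krt10 (adjusted p = 0.000235) and -0.63 for Krt77 (adjusted p = 0.0414), where 26.7% of all genes were called. Without the libraries labelled dorsal competent telogen they stood at -0.03 for Krt1 (adjusted p = 0.970), -0.00 for Krt10 (adjusted p = 1) and 0.31 for Krt77 (adjusted p = 0.463), while Krt5 and Krt14, at 0.01 (adjusted p = 0.986) and 0.18 (adjusted p = 0.273) with all libraries, were then called at 0.46 (adjusted p = 0.0279) and 0.56 (adjusted p = 0.00233). In that fit dorsal telogen was refractory telogen alone, whereas ventral telogen kept both phases, so these calls do not compare the same stages. Krt14 means were 3908 FPKM in dorsal refractory, 3906 in ventral refractory and 2101 in ventral competent telogen. Those of Krt5 were 1666, 1295 and 909 FPKM. The Krt77 call was also lost without any 1 of 16 libraries of both domains and all 4 stages, at -0.45 (without ventral mid anagen replicate 2) to -0.64.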

How the results depend on the processing

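The number of keratins called between telogen and anagen in dorsal skin moved most: from 2 to 1 without a filter on low values, with the replicate block and after rescaling to TPM, to 0 with quantile normalization, and to 5 without the libraries labelled dorsal competent telogen. It ran from 1 to 3 when single libraries were left out. The telogen difference of the log2 ratio of Krt10 to Krt14, 0.43 as an average over the domains, became 0.67 without those dorsal libraries and 0.14 without the chin late anagen libraries. All other counts stayed within 1.5 times their value under the alternatives run, and Krt2 gave no value in the skin table at a minimum of 5 FPKM.

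Among the single-keratin differences followed under all alternatives, direction changed in 18 cases. Outside these, the uncalled dorsal minus chin telogen difference of Krt14 went from 0.059 to -0.019 without chin late anagen. In dorsal telogen against anagen, Krt1 went to 0.0086 with median-of-ratios scaling, 0.061 with quantile normalization and 1.21 without dorsal competent telogen, and Krt10 to 0.89 without it. Krt2 there went to -0.013 with a pseudocount of 0.1, -0.016 with quantile normalization, -0.029 in TPM, and ran from -0.036 to 0.072 when single libraries were left out, lowest without dorsal competent telogen replicate 2 and also below 0 without dorsal late anagen replicate 2. From chin early to mid anagen, Krt77 ran from -1.61 to 0.0054 when single libraries were left out, the last without chin mid anagen replicate 1. Krt77 went to 0.31 for the dorsal minus ventral telogen difference without dorsal competent telogen. Centred on pan-keratinocyte genes, Krt77 went to -0.023 from dorsal catagen to refractory telogen, and Krt14 to 0.016 for dorsal minus ventral catagen and -0.12 for dorsal minus chin refractory telogen. With quantile normalization Krt14 in refractory telogen went to -0.16 for ventral minus chin and -0.13 for dorsal minus chin. With dorsal refractory telogen as the dorsal skin, the ear difference went to -0.062 for Krt5 and -0.41 for Krt1. The cause was not tested.

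Replicate numbers showed no common pairing of libraries. The correlation of deviations from group means ran from -0.43 to 0.37 (median 0.01) between libraries of the same number. Between libraries of different numbers it ran from -0.54 to 0.54 (median -0.01). In a group of 2 libraries the deviations mirror each other, so these values cannot exclude pairing in some groups. With the replicate block, Krt5 in dorsal telogen (0.25, adjusted p = 0.0575) and the telogen differences of Krt77 for ventral minus chin (-0.72, adjusted p = 0.0525) and dorsal minus ventral (-0.63, adjusted p = 0.0562) were no longer called by limma, and no other keratin call changed. No paired analysis was possible for the ear table because its ear skin columns carry no replicate numbers of the labels.

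Groups of 2 or 3 libraries limit all tests, and the depth is only estimated.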
